A study of Caenorhabditis elegans with 2 samples.

Results

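The 8 genes described here encode the subunits of the DREAM complex of Caenorhabditis elegans: lin-35, efl-1, dpl-1, lin-9, lin-37, lin-52, lin-53 and lin-54. They were chosen by a list of gene names drawn up with the binding data in view, from 19973 protein-coding genes on the nuclear chromosomes. The values that chose them were the peak signals at their own promoters, so those signals are given as a description, with no test. The data are chromatin immunoprecipitation with sequencing (ChIP-seq) of NHR-237, a nuclear hormone receptor, fused to enhanced green fluorescent protein (eGFP). All samples formed 1 group of 2 biological replicates, labelled 1 and 2, from whole mixed-stage embryos of pooled males and females of strain OP228, which carries unc-119(ed3) III and the transgene wgIs228; the embryos' age is not known. The transgene stands beside the animals' own nhr-237, which promoter drives it is not given in the sources used, and no group without the tag was analysed here. A whole-embryo peak does not say in which cells the tagged protein was bound.

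DREAM joins a pocket protein of the retinoblastoma family, an E2F and DP heterodimer and a core of further subunits called MuvB. It sits at promoters of cell cycle genes and keeps them off in cells that have stopped dividing, and in C. elegans it also represses germline genes in the soma. Its worm genes were found through mutants with extra vulval tissue, in the class named synthetic multivulva B (synMuv B). The E2F and DP dimer reads variants of TTCCCGC, and LIN-54 reads TTTGAA, the core of the cell cycle genes homology region. NHR-237 is a separate protein, and the peaks below are its own, at the genes that encode DREAM, not sites of DREAM.

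A gene was counted as having a peak when a summit, the peak's reported point of highest signal, fell in its promoter window, the stretch from 500 bp before to 200 bp after any annotated transcript 5′ end. Of the 8 DREAM genes, 5 had such a summit in the deposited optimal list of the irreproducible discovery rate (IDR) procedure. IDR filters peaks by how alike they rank between compared peak lists. Those 5 were lin-35, efl-1, lin-9, lin-53 and lin-54. Across all protein-coding genes the share was 6.70%, or 1338 of 19973. The same 5 genes had a summit in the list of replicate 1, where 19.0% of all genes did, and in that of replicate 2, where 32.7% did. For a summit in both replicate lists together the share of all genes was 15.2%. Of the 1338 genes with an IDR summit, 1310 had a summit in every list used here, those of both replicates included. The gene dpl-1 had a weaker summit in the pooled list, where 33.1% of all genes had one, and in replicate 2 alone. No list held a summit in the windows of lin-37 or lin-52.

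The replicate lists held 10872 and 30000 peaks for replicates 1 and 2, the pooled list 30000 and the IDR list 1626, and the first 3 include background regions. A summit in those lists is therefore not a call by itself, and its signal and rank are given with it. Every IDR peak has the same position and signal in the pooled list, so the pooled signal is given once, as the IDR signal. Signals are the authors' values and are not scaled between lists. Read depth is unknown. As a check of the tagged locus, the window of nhr-237 held no summit in any list. The window of unc-119 held no IDR summit; it had a pooled summit of signal 21.3 and a replicate 1 summit of signal 17.3.

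The genes lie on 5 chromosomes of build ce11. On chromosome I are lin-35 (WBGene00003020, 5807709 to 5815637, plus strand) and lin-53 (WBGene00003036, 9618196 to 9619760, minus strand). The gene dpl-1 (WBGene00001061) is on chromosome II at 9169910 to 9172565, plus strand. On chromosome III, all on the minus strand, are lin-9 (WBGene00002998, 8900237 to 8904131), lin-37 (WBGene00003022, 7070890 to 7072552) and lin-52 (WBGene00003035, 9824083 to 9824750). The gene lin-54 (WBGene00003037) is on chromosome IV at 13241044 to 13243401, plus strand, and efl-1 (WBGene00001161) is on chromosome V at 16958590 to 16965675, minus strand. None is on the X chromosome.

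**Figure D1:**
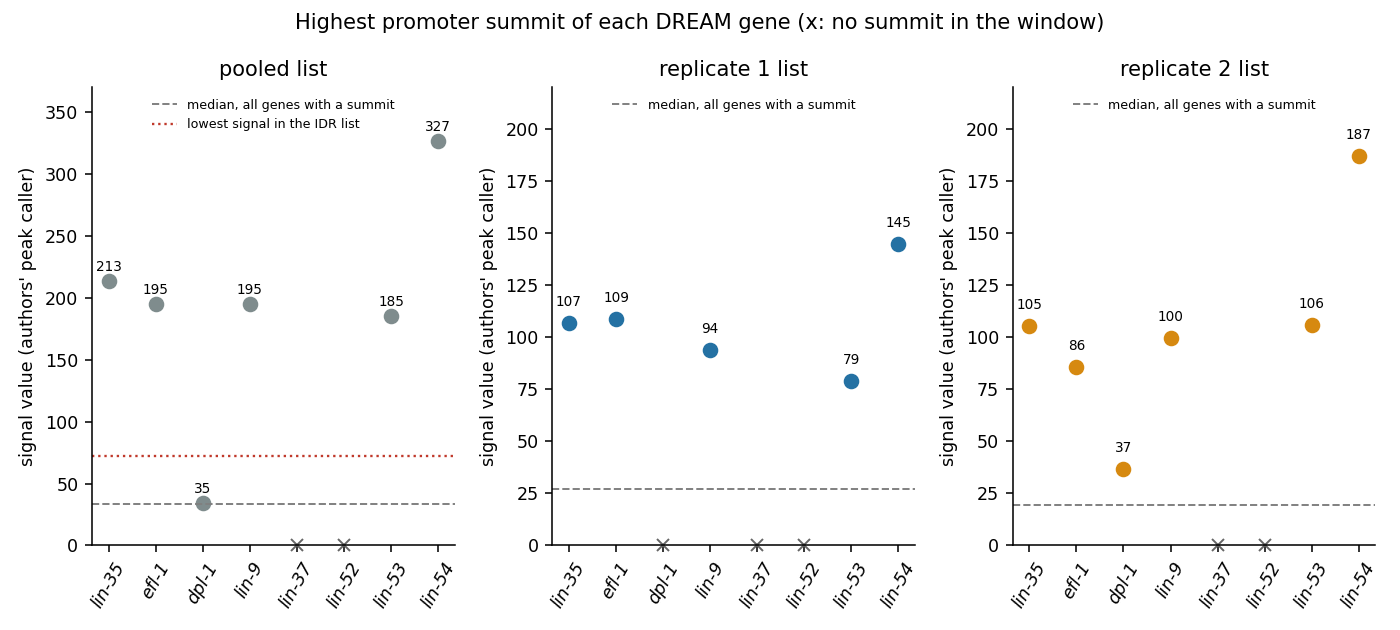
Signal of the highest promoter summit of each DREAM gene in the pooled list, replicate 1 and replicate 2 (vertical axis, the authors' signal value, with its own scale in each list). Crosses mark genes with no summit in the window, dashed lines the median over all genes with a summit, and the dotted line the lowest IDR signal, 72.6; lin-54 is highest in each list, and dpl-1, at 34.6, lies under the dotted line.

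The pocket protein gene lin-35 encodes the only worm member of the retinoblastoma family. Its IDR peak, at 5807288 to 5807683, had a signal of 213 and ranked 135 of 1626. In the replicates the signal was 107 (rank 129) in replicate 1 and 105 (rank 165) in replicate 2. The IDR summit lay 223 bp upstream of the lin-35 5′ end, and summits of the other lists lay 221 to 252 bp upstream. It also lay in the window of the divergent gene vps-51, which encodes a subunit of a vesicle tethering complex, 195 bp upstream of that 5′ end. The 5′ ends of these genes are 418 bp apart, so the summit stood near the middle of the region between them, slightly closer to vps-51.

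The E2F subunit gene efl-1 had an IDR peak of its own, shared with no other gene, of signal 195 and rank 185. The signal was 109 (rank 121) in replicate 1 and 85.9 (rank 326) in replicate 2, the widest gap in rank between the replicates among these 5 genes. The summit lay 171 bp upstream of the 5′ end, and the next gene, the divergent F-box gene fbxa-90, begins 1139 bp away. The sequence within 100 bp of the summit, chrV:16965746-16965946, is shown on the strand of efl-1 because it holds matches to an E2F letter string and to a promoter motif close to the summit. Capitals mark matches, on either strand, to the fixed motifs described further on.
efl-1: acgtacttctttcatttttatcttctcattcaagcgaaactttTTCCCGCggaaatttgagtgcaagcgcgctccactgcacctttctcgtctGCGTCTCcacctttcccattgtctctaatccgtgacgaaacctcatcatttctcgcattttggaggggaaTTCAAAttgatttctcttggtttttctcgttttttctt
In these letters TTCCCGC is centred 54 bp from the summit, GCGTCTC 4 bp from it, and TTTGAA, here read on the other strand as TTCAAA, 66 bp from it.

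The DP partner of EFL-1 is encoded by dpl-1, which had no IDR peak. Its pooled summit had a signal of 34.6 and ranked 7334 of 30000, far below the lowest IDR signal of 72.6. In replicate 2 the summit had a signal of 36.7 and ranked 1861, and in replicate 1 the window held none; the nearest replicate 1 summit was 2094 bp from the 5′ end, in an exon of T23G7.3. The −log10 of the q-value was 1.65 in replicate 2 and 0.0022 as deposited in the pooled list. The gene dpl-1 lies inside T23G7.2, which is on the opposite strand, and both summits were in an exon of that gene. The IDR summit nearest to dpl-1 was 41490 bp away, in an intron of jun-1. The heterodimer's 2 genes thus stood apart in this list: efl-1 at 195 in the IDR list, and dpl-1 only below its limit.

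Among the MuvB core genes, lin-9, which encodes a scaffold subunit, had an IDR peak of signal 195 and rank 183. The replicates gave similar values, 93.9 (rank 202) in replicate 1 and 99.9 (rank 198) in replicate 2. The summit lay 142 bp upstream of the 5′ end, the closest among the 5 genes, and in no other gene's window. The nearest upstream gene is the divergent unc-32, which encodes a subunit of the vacuolar proton pump, 1484 bp away. The sequence within 100 bp of the summit, chrIII:8904173-8904373 on the strand of lin-9, is shown because a promoter motif lies at the summit itself, with matches to the LIN-54 letter string beside it.
lin-9: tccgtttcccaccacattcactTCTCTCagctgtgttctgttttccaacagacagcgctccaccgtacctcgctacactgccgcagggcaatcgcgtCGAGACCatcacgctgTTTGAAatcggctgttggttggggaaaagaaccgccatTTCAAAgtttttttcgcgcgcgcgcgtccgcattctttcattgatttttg
The motif CGAGACC was centred at the summit (0 bp), with TTTGAA 16 bp away and a further match, TTCAAA, 54 bp away. GAGAGA, read here as TCTCTC, was 75 bp away.

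The histone-binding subunit gene lin-53, whose product is also part of other chromatin complexes, had the lowest IDR signal of the 5 genes, 185, at rank 215. The order of the replicates was the reverse of that at efl-1: 79.2 (rank 315) in replicate 1 and 106 (rank 162) in replicate 2. The summit, 213 bp upstream of the 5′ end, moved by only 1 bp between the 4 lists. It also lay 254 bp upstream of the divergent gene nra-2, which encodes a protein of acetylcholine receptor assembly, and the 5′ ends are 467 bp apart. The IDR peak was 129 bp wide, but the peak was 380 bp wide in each replicate list, as were those of lin-35, efl-1 and lin-9. The most frequent width in the pooled list was 396 bp. Such recurring widths are not read here as extents of binding. The median IDR peak was 396 bp wide, and 3.87% of IDR peaks were under 200 bp, that of lin-54 (177 bp) among them.

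The DNA-binding subunit gene lin-54 had the highest signal of the 8 genes, 327 in the IDR list at rank 48. It was also highest in each replicate, with 145 (rank 60) in replicate 1 and 187 (rank 42) in replicate 2. Its summit lay farthest from the DREAM gene, 358 bp upstream of the 5′ end, and only 35 bp upstream of the divergent gene rpl-12, which encodes a protein of the large ribosomal subunit. Ribosomal protein genes as a group had a median IDR signal of 201. When the window was narrowed to 300 bp before and 100 bp after the 5′ end, lin-54 no longer had a summit, and the count of DREAM genes was 4. The sequence shown is the part within 100 bp of the summit that lies outside exons, between the 2 genes, chrIV:13240652-13240786 on the plus strand.
lin-54: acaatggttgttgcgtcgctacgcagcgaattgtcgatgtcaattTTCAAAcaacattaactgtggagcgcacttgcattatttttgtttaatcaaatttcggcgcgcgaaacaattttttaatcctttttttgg
It begins next to the rpl-12 5′ end and holds 1 fixed motif, TTTGAA, read as TTCAAA, 14 bp from the summit.

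The remaining MuvB genes, lin-37 and lin-52, had no summit in their windows in any of the 4 lists. LIN-52 bridges the pocket protein and MuvB. Each of these genes follows another gene on the same strand at a short distance: ZK418.5 ends 61 bp from the lin-37 5′ end and ZK632.9 ends 127 bp from that of lin-52. In C. elegans such neighbours are often transcribed together from 1 upstream promoter, and an annotated 5′ end can then mark a trans-splice site. Whether these genes are in operons was not looked up here. Whether the placement of the preceding gene bears on the absent summits was not tested. The gaps between the genes, chrIII:7072553-7072612 and chrIII:9824751-9824876 on the minus strand, are shown in full. Each promoter window reaches 500 bp upstream, past the gap. Neither gap holds a match to the fixed motifs.
lin-37: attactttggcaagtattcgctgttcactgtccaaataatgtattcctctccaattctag
lin-52: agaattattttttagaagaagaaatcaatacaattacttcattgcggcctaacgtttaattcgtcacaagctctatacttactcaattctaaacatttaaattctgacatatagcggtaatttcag
In their own windows, these upstream genes had no IDR summit. At ZK418.5 the signal was 33.9 in the pooled list and 23.5 in replicate 2, at summits 322 and 318 bp upstream of its 5′ end. In replicate 1 the signal was 23.4, at a summit in another place, 39 bp upstream. At ZK632.9 it was 37.2 in the pooled list and 25.5 in replicate 1, with no summit in its window in replicate 2. A stronger summit lay beyond that window, 1350 bp upstream of the lin-52 5′ end and outside protein-coding genes, with a signal of 65.7 (rank 1902) in the pooled list, under the lowest IDR signal of 72.6. Its signal was 40.8 (rank 1320) in replicate 1, where it lay 1354 bp upstream, and 19.0 (rank 8605) in replicate 2.

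**Figure D2:**
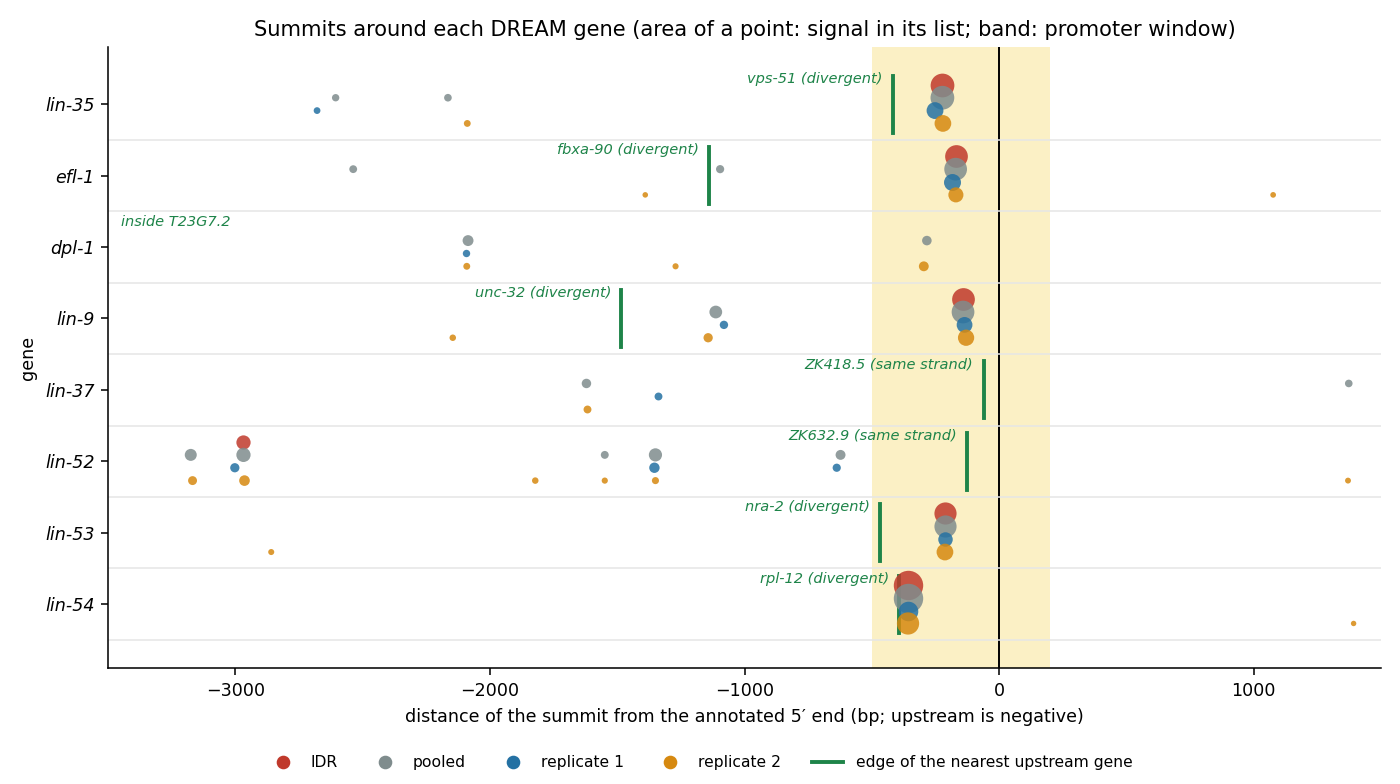
Positions of summits around the annotated 5′ end of each DREAM gene (horizontal axis, bp, upstream negative), with 1 row per gene and a colour per list; the area of a point is proportional to its signal, the band is the promoter window and the green mark is the edge of the nearest upstream gene. Points of all 4 lists stack within the band at 5 genes, 142 to 358 bp upstream in the IDR list, while the bands of lin-37 and lin-52 are empty.

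All 5 summits lay upstream of the DREAM gene and outside protein-coding genes, 142 to 358 bp from the 5′ end. Across the 1338 genes with an IDR summit the median distance was 194 bp upstream, with quartiles of 117 and 292 bp. Both quartiles are upstream, so a summit upstream of the 5′ end was usual among those genes too. How many of their summits lay outside protein-coding genes was not counted. The summits of the 4 lists lay within 1 to 31 bp of each other at these genes, with lin-35 the widest. All 5 peaks had the highest −log10 q-value of their list, 2.38 in the IDR list, 2.18 in replicate 1 and 3.28 in replicate 2. This value was shared by 595 of the 1626 IDR peaks, so it does not order them.

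By signal, the 5 genes stood in the upper part of the IDR genes. Their median was 195, against 110 over all 1338 genes with an IDR summit, whose quartiles were 88.1 and 153. The lowest, lin-53, was above 84.7% of those genes, efl-1 above 86.9%, lin-9 above 87.1%, lin-35 above 90.9% and lin-54 above 97.7%. Below lin-54 the order was not the same in the replicates. In replicate 1 it ran efl-1, lin-35, lin-9, lin-53, and in replicate 2 lin-53, lin-35, lin-9, efl-1. Every pair among these 4 genes changed places between the replicates, except that lin-35 was above lin-9 in both (107 against 93.9 in replicate 1, 105 against 99.9 in replicate 2). With 2 replicates, no difference among the 4 was tested. When each replicate's list was limited to its 1626 peaks of highest signal, all 5 genes had a summit, at background shares of 6.40% in replicate 1 and 6.56% in replicate 2.

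For each of these genes, the gene with the most similar signals, leaving out genes that share one of its summits, was found by the distance in log2 signal over the 4 lists, which come from 2 samples. The genes vps-51, nra-2 and rpl-12 were thus left out beside lin-35, lin-53 and lin-54, whose summits they share in all 4 lists. Since the IDR and pooled values are the same, that value counts for more. Over 1310 genes with a summit in every list, the nearest to lin-35 was brc-1, the worm BRCA1 gene (distance 0.031), with signals of 215 in the IDR list, 107 in replicate 1 and 108 in replicate 2. The nearest to efl-1 was the methionyl-tRNA synthetase gene mars-1 (0.067). For lin-9 it was the mitochondrial ribosomal gene mrpl-49 (0.039), which shares its IDR summit with the ribosomal protein gene rpl-28. The nearest to lin-53 was the gene citk-2 (0.062) and to lin-54 the cytochrome oxidase gene cox-5A (0.095). These are likenesses of peak height only.

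The DREAM genes with and without an IDR peak differed in how the neighbouring gene is placed, a feature looked at after the peaks were seen. All 5 genes with a peak have a divergent gene as their nearest upstream neighbour. So do 933 of the 1338 genes with an IDR summit, and 8420 of all 19973 protein-coding genes. The 3 DREAM genes without a peak are dpl-1, which lies inside another gene, and lin-37 and lin-52, which follow a same-strand gene within 500 bp. Over all protein-coding genes, 11.1% of the 8420 with a divergent upstream gene had an IDR summit. The share was 4.96% of 1391 genes whose 5′ end lies inside another gene, 4.22% of 3531 that follow a same-strand gene within 500 bp, and 2.82% of 6626 that follow one farther away. A divergent gene also adds a 5′ end to which a summit can belong. Whether this bears on the higher share was not tested. Of the 5 genes, 3 shared their summit with the divergent gene (lin-35, lin-53 and lin-54); among all genes with an IDR summit, 50.3% shared it with another protein-coding gene. With each summit given only to the nearest 5′ end within 2000 bp, the count of DREAM genes was 3 of 8, against 6.62% of all genes. The summits at lin-35 and lin-54 then went to vps-51 and rpl-12, and efl-1, lin-9 and lin-53 kept theirs.

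**Figure D3:**
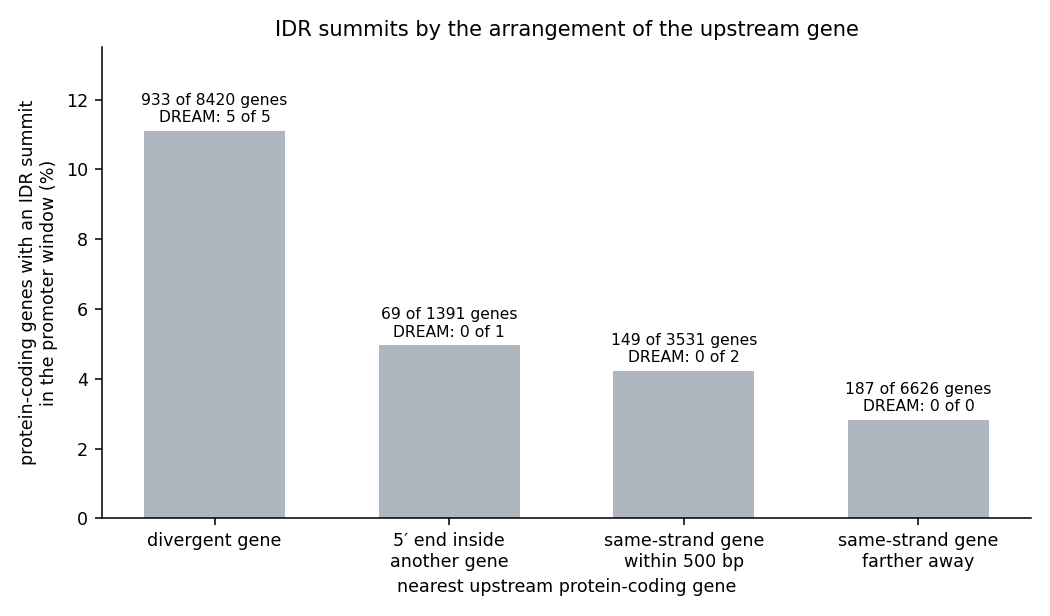
Share of protein-coding genes with an IDR summit in the promoter window (vertical axis, percent), by the placement of the nearest upstream protein-coding gene, with the numbers of genes and of DREAM genes above each bar. The bar for divergent neighbours, at 11.1%, is the tallest. All 5 DREAM genes with a summit belong to it, as do 933 of all 1338 genes with one.

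Other genes of the same pathways that had an IDR summit had lower signals than the 5 DREAM genes with one. The DREAM genes dpl-1, lin-37 and lin-52 had no IDR summit and are outside this comparison. The synMuv B list here holds 16 genes outside DREAM, including rba-1, a paralogue of lin-53, and 5 of the 16 had an IDR summit, at 93.3 to 144. The highest were lin-61 (144), which encodes a protein with MBT repeats, lin-36 (137), ubc-9 (96.6), the SUMO conjugating enzyme gene, and dcp-66 (94.8), which encodes a subunit of a histone deacetylase complex. The summit at lin-61 was also that of bub-1, and the one at lin-36 lay in the window of F44B9.11 too. Of 4 synMuv A genes only lin-38 had one (151), and of 4 synMuv C genes only epc-1 (128), a subunit gene of the Tip60 acetyltransferase complex. The summit at epc-1 also lay in the windows of Y111B2A.12 and Y111B2A.34.

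Cell cycle and replication genes, the class on which DREAM acts, had an IDR summit at 13 of 42 members, with a median signal of 111 and a range of 72.7 to 159. The highest were wee-1.3 (159), which encodes an inhibitory kinase of CDK-1, bub-1 (144) and mdf-1 (139), both of the spindle checkpoint, and div-1 (129), a DNA polymerase alpha subunit gene. The helicase genes mcm-2, mcm-4 and mcm-7, named after their values were seen, had 72.7, 79.6 and 72.9, close to the lowest IDR signal. All 5 DREAM signals, from 185 up, were above the highest value of each synMuv list and of the cell cycle list. The DREAM genes were chosen with these signals in view, so their higher place is a description only. The summits at lin-35 and lin-54 lay nearer to vps-51 and rpl-12. The one at lin-54 is also counted for rpl-12 in the ribosomal protein list. Proteasome genes had a summit at 17 of 32 members, with a median of 122. The highest there was rpn-3 (331), then rpn-9 (208), followed by pbs-3 (140) and by rpn-5 (139). Among 78 genes of ribosomal proteins, 61 had a summit, with a median of 201, and the highest were rpl-3 (772), rpl-20 (604), rpl-15 (555) and rpl-35 (499). Several of the summits named here also lay in the windows of other genes. They include those at div-1 (cor-1), rpn-3 (C30C11.14 and hsp-110), rpn-9 (T06D8.9), rpn-5 (scc-1), rpl-20 (Y17G9B.5) and rpl-15 (K11H12.8). The shares were 62.5% for the DREAM genes, 31.2% for the synMuv B list, 31.0% for the cell cycle list, 53.1% for proteasome and 78.2% for ribosomal protein genes, beside 6.70% of all genes. None of these was tested, since the lists were chosen with results of these data known.

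**Figure D4:**
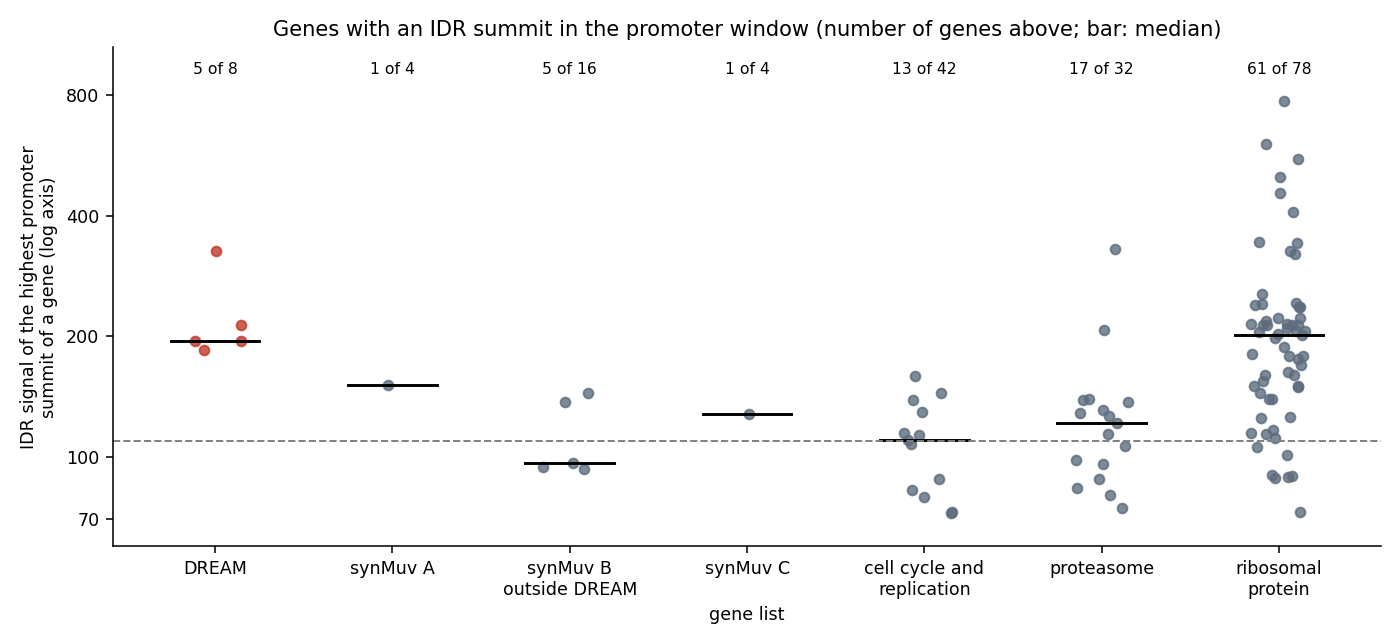
IDR signal of the highest promoter summit of each gene (vertical axis, log scale), for the DREAM genes and 6 other lists, with the number of genes with a summit above each column, a bar at the median and a dashed line at 110, the median of all genes with an IDR summit. The 5 DREAM genes with an IDR summit lie between 185 and 327, above every synMuv and cell cycle gene shown. They were chosen with these signals in view. The summit of lin-54 is also that of rpl-12 in the ribosomal protein column. The DREAM genes dpl-1, lin-37 and lin-52 have no such summit and no point.

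Sequence features were read from the reference and were not part of the choice of genes. In each gene 10 motifs were searched on both strands in the 250 bp before and the 50 bp after its outermost 5′ end, and set beside all 19973 promoters of that length. TTCCCGC, a form of the E2F site, was in the promoters of efl-1 and lin-53 and in 3.22% of all promoters. The overlapping string CCCGCC was in none of the 8 (6.48% of all), and TTGGCGC in none (2.17%). TTTGAA was in 6 of 8, all but lin-35 and lin-52, but it is common, at 62.5% of all promoters. CGAGACC was at lin-9 and lin-53 (3.04% of all) and GCGTCTC at efl-1 (4.32%). GAGAGA was at dpl-1, lin-9 and lin-37 (21.8%). TGATAA was at lin-54 alone (30.2%) and TATAAA at lin-37 alone (37.9%). AGGTCA, the half-site read by many nuclear receptors, was in none of the 8 and in 8.27% of all promoters.

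Motifs were also read within the 100 bp centred on each IDR summit. This stretch is shorter and was read only at genes with an IDR summit, so its counts do not compare directly with those above. CGAGACC was found at lin-9 and lin-53, against 11.3% of the 1338 genes with an IDR summit, and GCGTCTC at efl-1, against 10.5%. TTTGAA was found at lin-9, lin-53 and lin-54, against 24.1%. TTCCCGC lay outside these 100 bp at both genes that hold it, and AGGTCA was at 0 of 5, against 1.42%. The summit at lin-35 held none of the 10 motifs. The GC content of these 100 bp was 58% at lin-9, 56% at lin-53, 50% at efl-1, 42% at lin-54 and 35% at lin-35. The median over the 1338 genes with an IDR summit was 46%, with a shared summit counted for each of its genes. A match to a letter string does not show that a factor binds there.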

How the data were processed

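Peak lists on build ce11 were read as the authors deposited them: an optimal IDR list, a pooled list and 1 list per replicate. The last 3 were called against a control alignment, per the deposited text listings. Not given in the sources used here were aligner, peak caller and IDR cut-off. Each peak's signal value and the −log10 q-value are as deposited; in the pooled list the deposited q column is a score with values slightly below 0. Lists on build ce10 were not used. All peaks lay within the chromosome lengths of WBcel235, whose sequence (RefSeq) and Ensembl release 115 gene models were used. A summit is the deposited peak start plus offset, and a gene takes its summit of highest signal. Nothing was tested. The members, lists and motifs were chosen with earlier results of these data known. Named genes were the 8 members, nhr-237, unc-119, genes sharing an IDR summit with a member, up to 4 members of highest signal per list, and the most similar gene not sharing its summit; other genes, such as neighbours, genes at nearby summits, rba-1 and the mcm genes, were named after their values were seen. Alternatives were other windows, peak positions, transcripts, gene assignment, a stricter list and each replicate alone. Gene assignment was tested on simulated data. Python 3.11.15, numpy 2.4.6, pandas 2.3.3 and matplotlib 3.10.9 were used.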

Additional observations from a re-analysis of the deposited data

How the results depend on the processing

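The count of DREAM genes with an IDR summit, 5, was 4 to 5 under every alternative but one: it was 3 with each summit given only to the nearest gene. To leave out a replicate, the 1626 peaks of highest signal in the other replicate's list took the place of the IDR list. The count was then 5 without replicate 1 and 5 without replicate 2, the result already given above. The count with summits in both replicate lists was 4 to 5. The signals of the 5 genes came from the same peak in all 37 alternatives that gave a value. No other IDR summit lay within 4000 bp of these 5′ ends, so no other peak could have been taken. No signal was taken from a replicate alone, since lists are not scaled to each other. With the 813 IDR peaks of higher signal, the share of all genes was 3.54% and the counts were 2 for synMuv B, 8 for cell cycle and 11 for proteasome genes. By nearest gene, proteasome genes had 10 and ribosomal protein genes 35, and ribosomal protein genes also had 35 with the window of 300 bp and 100 bp, where synMuv B genes had 3. Leaving out a replicate gave 3 to 4 for synMuv B, 10 to 14 for cell cycle, 15 to 18 for proteasome and 60 to 62 for ribosomal protein genes, and 6.40% to 6.56% of all genes; the synMuv A and C counts stayed at 1. The count for the window reflects that fewer summits are counted; the causes of the other changes were not tested. Of 20 motif counts in other windows, 8 moved, with windows of other lengths. With 300 bp or 1000 bp as the limit for a same-strand neighbour, chosen after seeing the data, the share of genes with an IDR summit was 2.96% or 4.20% for close and 3.42% or 2.24% for farther neighbours.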

Other observations

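Further summits stood near some of the DREAM genes, outside their promoter windows. In the region between lin-9 and unc-32, a summit 1113 bp upstream of the lin-9 5′ end had a signal of 61.5 in the pooled list, under the lowest IDR signal of 72.6, with 26.4 in replicate 1 and 32.5 in replicate 2; it lay in the window of unc-32. At lin-52 the nearest IDR summit, of signal 76.7 and rank 1490, was 2968 bp upstream of the 5′ end and lay in the windows of ZK632.10 and ZK632.11. At lin-37 the nearest IDR summit, of signal 98.8 and rank 934, was 3682 bp downstream of the 5′ end and lay in the windows of R01H2.8 and ubc-18.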
